A study of Taeniopygia guttata with 10 samples.

Results

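Single-CpG Methylation Peaks were the regions of the MethylCap-seq peak table that span exactly 2 bp, the length of one CpG dinucleotide. They were chosen by position alone, as the peaks whose end minus start plus 1 equals 2, and numbered 197885 of the 719917 Methylation Peaks (27.5%). Of the others, 70181 were 3 to 50 bp wide, 178817 were 51 to 200 bp wide and 273034 were wider than 200 bp. Together the single-CpG peaks covered 395770 of the 175274381 bp inside peaks (0.226%). All of them entered the main tests.

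The peaks were measured in 5 MethylCap-seq libraries from G266, a diploid line of a male zebra finch, and ZFTMA, a tetraploid line of a female. Both lines came from spontaneous tumors outside the nervous system. Each line received AZA (5-aza-2’-deoxycytidine) at 1 µM for 72 h, given anew every 24 h, or its solvent DMSO, and ZFTMA was also left untreated and additionally measured by RRBS. Each line and treatment gave 1 library, so the lines were the only replicates of a treatment. The AZA test compared treatments within each line. Its p-values rest on how far AZA responses differed between the 2 lines, with that spread estimated largely over all peaks together. A small p therefore does not show that the lines agreed at that peak. In the test of the lines, the DMSO and AZA libraries of a line stood in for its replicates. Any difference between the lines can also be one of sex, ploidy or library, which cannot be told apart here.

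In vertebrates DNA methylation sits mainly on the cytosine of CpG dinucleotides, and most CpGs outside CpG islands are methylated. MethylCap-seq captures sheared DNA with a methyl-CpG binding domain. A fragment with several methylated CpGs is generally bound better than one with a single methylated CpG, and the method cannot say which CpG within a fragment carried the methyl group. AZA is built into DNA in place of cytidine, where it traps the DNA methyltransferases, so that methylation is lost as cells divide. RRBS enriches CpG-rich DNA by restriction digestion and reads single CpGs after bisulfite conversion, giving the percentage of reads in which a CpG was methylated (the methylation degree).

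How the peaks were drawn bears on every value below. The authors took as peaks the stretches in which the summed coverage of both DMSO libraries reached a threshold at each base, and trimmed each stretch so that it starts and ends with a CpG. A 2-bp peak is thus a stretch that held a single CpG, and its length says nothing of the length of the stretch before trimming. The members are named by position only (taeGut3.2.4), since no sequence of that build was used here.

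The 2-bp peaks formed a class by their number. No peak was 3 bp wide, 1032 were 4 bp, 1242 were 5 bp and 1272 were 6 bp. The levels did not jump in the same way: the mean count in DMSO-treated G266 was 4.31 fragments at 2 bp, 4.43 at 4 bp and 4.81 at 6 bp, and in DMSO-treated ZFTMA it was 1.44, 1.58 and 1.69. The narrowest peaks that hold a second CpG were therefore close to the single-CpG peaks in fragment number.

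Single-CpG peaks held few fragments in every library. The mean was 4.31 fragments per peak in DMSO-treated G266 and 1.41 in AZA-treated G266. The ZFTMA means were 1.44 (DMSO), 1.23 (AZA) and 1.27 (untreated). Peaks wider than 2 bp, which can collect fragments over a longer stretch, averaged 18.2 (DMSO) and 4.35 (AZA) fragments in G266, while their ZFTMA means were 15.9, 4.75 and 19.2 for DMSO, AZA and untreated. The AZA libraries thus put the classes nearer to each other than the DMSO libraries did.

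Empty peaks were common outside DMSO-treated G266. No fragment was counted on 0.420% of the single-CpG peaks in DMSO-treated G266, but on 29.3% after AZA. In ZFTMA 25.4% were empty with DMSO, 34.1% with AZA and 38.4% without treatment. Of the wider peaks 4.84% were empty in DMSO-treated and 7.22% in untreated ZFTMA. A fragment in all 5 libraries was found on 47458 single-CpG peaks (24.0%), against 71.3% of the wider peaks, and 24580 (12.4%) had no fragment in either AZA library, against 4.38%.

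**Figure D1:**
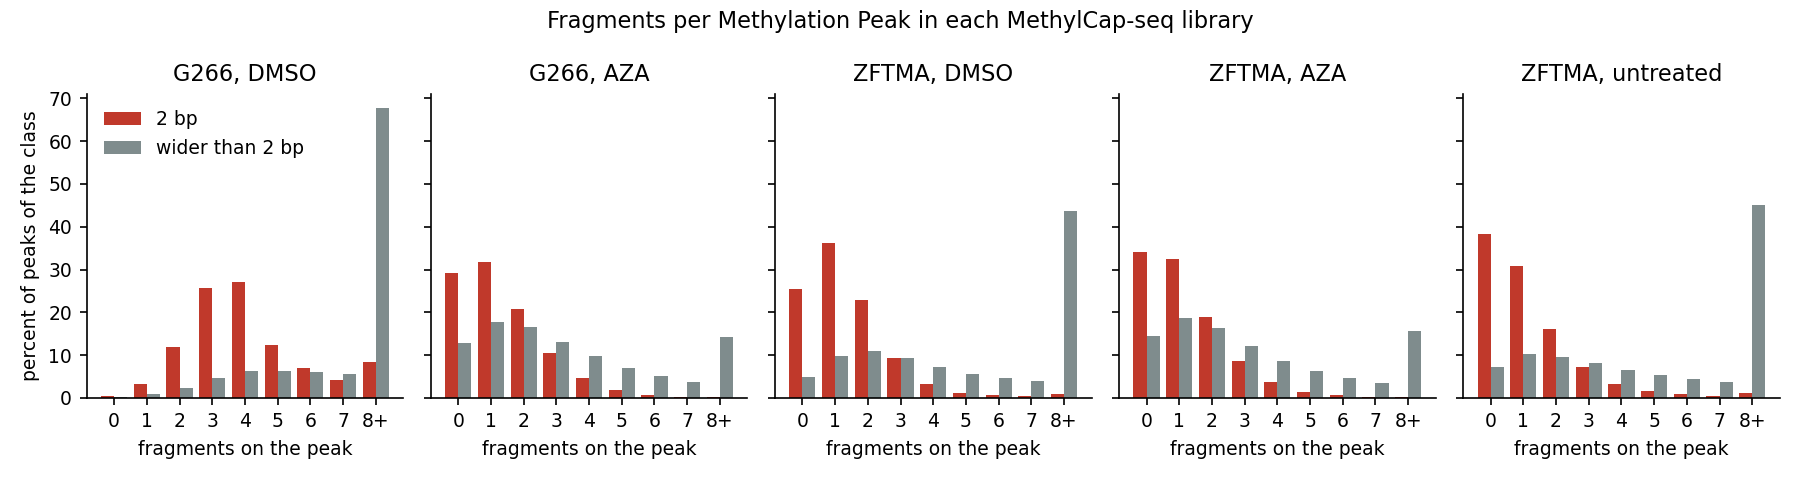
Distribution of the number of fragments per Methylation Peak in each of the 5 MethylCap-seq libraries, for single-CpG peaks (2 bp) and wider peaks, as percent of the peaks of the class, with 8 or more fragments in the last bar. In DMSO-treated G266 most single-CpG peaks held 3 (25.7%) or 4 (27.0%) fragments, while in the ZFTMA libraries 0 and 1 were the most frequent counts.

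The DMSO totals lay at the edge of what was called a peak. The 2 DMSO libraries together held exactly 4 fragments on 93019 single-CpG peaks (47.0%) and fewer on 73, and at most 9 on 91.6%. Of the wider peaks 4.35% held exactly 4. The median total was 5 on single-CpG and 18 on wider peaks, and 20 or more were found on 1795 single-CpG peaks (0.907%) against 46.3% of the wider ones. Because the peaks were drawn on these same libraries, their DMSO counts had to be high enough to pass, and that was asked of neither the AZA nor the untreated libraries. How much this selection moved the comparisons with DMSO was not tested.

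Most of those fragments came from G266. The combination of 3 fragments in G266 and 1 in ZFTMA was the most frequent (37736 peaks, 19.1%), followed by 4 and 0 (29552 peaks), 2 and 2 (19588 peaks) and 4 and 1 (15532 peaks). In 50200 peaks (25.4%) all DMSO fragments were from G266, against 4.84% of the wider peaks, whereas 831 (0.420%) had DMSO fragments from ZFTMA only. The peaks without any fragment from DMSO-treated ZFTMA thus outnumbered those without any from DMSO-treated G266 by far.

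As a share of the fragments on all peaks, single-CpG peaks took 8.24% in DMSO-treated G266 (95% exact binomial interval 8.22 to 8.25) and 10.95% (10.91 to 10.99) after AZA. In ZFTMA the share was 3.33% (3.32 to 3.34) with DMSO, 8.96% (8.93 to 9.00) with AZA and 2.45% (2.44 to 2.46) without treatment. The intervals cover counting error only. The share was higher after AZA in both lines, with DMSO-treated G266 close to AZA-treated ZFTMA. The mean was 5.78% ± 3.47 (SD, n = 2) with DMSO and 9.96% ± 1.41 (SD, n = 2) with AZA, a difference of 4.17 percentage points (2.71 in G266 and 5.63 in ZFTMA). Both AZA libraries lay above both DMSO libraries. A two-sided exact permutation test over the 4 libraries, which left out their pairing by line, gave p = 0.333. This is the smallest p that such an unpaired test can reach here, so it cannot decide.

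The depth behind these counts differed widely. Between 2549052 and 10358829 fragments lay on peaks, 48.4% and 57.4% of the non-duplicate reads in the AZA libraries against 84.4% to 92.1% in the others. AZA and DMSO were set against each other per noise read, a non-duplicate read outside peaks, which is also the scale the study used. Each library held between 832972 and 2714187 noise reads. This scale decides the direction of the AZA comparison for single-CpG peaks. Scaling by all non-duplicate reads multiplies each AZA to DMSO ratio by 3.31 in G266 and 4.81 in ZFTMA, and scaling by the fragments on peaks multiplies it by 5.76 and 7.64.

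Per noise read, single-CpG peaks held fewer fragments after AZA in both lines. The 853363 fragments of DMSO-treated G266 stood against 279141 after AZA, a pooled AZA to DMSO ratio of 0.231 (0.230 to 0.232, counting error). In ZFTMA 285659 fragments stood against 243967, a ratio of 0.352 (0.350 to 0.354). Over the lines this was 0.291 ± 0.086 (SD, n = 2). The direction flips with the scale: per non-duplicate read the ratio was 0.763 in G266 but 1.69 in ZFTMA, and per fragment on peaks it was 1.33 and 2.69. The ratio of single-CpG peaks was 1.37 times that of the wider peaks in G266 and 2.86 times in ZFTMA. These factors cannot change with the scale, because the library size cancels between the classes. The wider peaks had ratios per noise read of 0.168 in G266 and 0.123 in ZFTMA. This excess over the wider peaks had the same direction in both lines and was not tested, having 1 library per line and treatment.

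Peak by peak the direction per noise read was the same for the minority with enough fragments, and it too flips when scaled by the fragments on peaks. Of the 18344 single-CpG peaks with at least 10 fragments over both G266 libraries, 96.5% had a negative log2 ratio per noise read, with a median of -2.09. In ZFTMA only 2153 reached 10 fragments, of which 95.3% were below 0 with a median of -2.56. These medians rest on 9.27% and 1.09% of the class, and because the minimum includes the DMSO fragments it favours peaks that are high with DMSO. With no minimum the ZFTMA median was -1.28 and the G266 median -2.09, which turns the order of the lines to that of the pooled ratios.

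In the edgeR quasi-likelihood test on all peaks, with the cell line as a block and noise reads as library size, 18266 single-CpG peaks were lower and 3 higher after AZA (FDR of 0.1, Benjamini-Hochberg over all peaks). That is 9.23% of the class lower, where 54.6% of all peaks tested were lower, and 0.00152% higher, where 0.00167% of all peaks were. The study's own edgeR test called a far smaller share of all peaks lower at the same FDR. The reason for this difference was not tested. In the test used here, the share of lower peaks was 34.6% at 3 to 50 bp, 53.8% at 51 to 200 bp and 93.0% above 200 bp. The median fitted log2 change was -1.84 over the single-CpG peaks and -2.50 over all peaks. These calls depend on the scale too. With all non-duplicate reads as library size 128 were lower and 66 higher, beside 53025 and 735 of all peaks. With TMM on the peak counts 1 was lower and 37 higher, beside 148 and 359 of all peaks, and the median turned to 0.44. Without the cell line as a block 57328 were lower, beside 478247 of all peaks. Leaving out 1 library, also without the block, gave medians from -1.37 without DMSO-treated G266 to -2.04 without DMSO-treated ZFTMA. Over all peaks the same fits gave -2.42 and -2.29.

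The share called followed the number of fragments. No single-CpG peak with a DMSO total of 4 or 5 was called lower, and those totals make up most of the class. Nor was any wider peak with these totals (22710 peaks at 4 and 25577 at 5). At 6 to 7 fragments 4.14% were lower, at 8 to 9 fragments 26.4%, at 10 to 14 fragments 71.1%, at 15 to 19 fragments 96.8% and at 20 to 49 fragments 99.5%. The wider peaks gave 7.38%, 32.7%, 74.9%, 95.4% and 99.5% at the same totals. At equal DMSO total the share called was thus below that of all wider peaks at 6 to 14 fragments and above it at 15 to 19. The wider classes differed among themselves. Peaks of 3 to 50 bp gave 7.17%, 38.4%, 83.6%, 99.3% and 99.9%, above the single-CpG peaks at each of these totals. Those over 200 bp gave 10.7%, 31.4%, 70.6%, 93.3% and 99.4%, above them only at the lowest totals. These differences were not tested.

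The 18266 lower peaks had a median DMSO total of 11 fragments and none under 6, against a median of 4 in the single-CpG peaks that were not called. Their mean went from 8.84 fragments with DMSO to 1.42 with AZA in G266 and from 3.95 to 1.34 in ZFTMA. Untreated ZFTMA, which had no part in the test, held 3.34 fragments on them. Both lines pointed down per noise read in 17990 of them, and 3013 (16.5%) had no fragment in either AZA library. A high DMSO level beside a low AZA level is what the call asks for, so these means describe the called peaks and no more.

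The clearest of the lower peaks lost nearly every fragment. On chromosome 1 at 36502508 to 36502509, 32 fragments in DMSO-treated G266 stood against 0 after AZA and 14 in DMSO-treated ZFTMA against 2, with 15 untreated, and the fitted log2 change was -5.12 ± 0.70 (SE, edgeR adjusted p = 1.21e-10). On chromosome 2 at 29071930 to 29071931 the DMSO counts were 26 (G266) and 10 (ZFTMA), both AZA counts were 0 and the untreated count was 6 (edgeR adjusted p = 1.53e-10). With no AZA fragment its fitted change is no bound, but it was the peak that stayed lower when TMM was used. Also on chromosome 2, at 70079404 to 70079405, 23 and 15 fragments stood against 0 and 1, with 16 untreated (log2 change -5.73 ± 0.80, SE, edgeR adjusted p = 2.04e-10). In all of them the untreated count was nearer to the DMSO than to the AZA count of ZFTMA.

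The 3 higher peaks were small and uneven. The one on chromosome 1A at 12554934 to 12554935 lies within LHFPL3, a gene of the family of tetraspan membrane proteins, and went from 3 to 13 fragments in G266 and from 1 to 14 in ZFTMA, with 4 untreated (log2 change 1.88 ± 0.77, SE, edgeR adjusted p = 0.0309). On chromosome 2 at 12550172 to 12550173 the counts went from 1 to 8 and from 3 to 19, with 4 untreated (1.71 ± 0.77, SE, edgeR adjusted p = 0.0535). On an unplaced scaffold at 6215318 to 6215319 the count went from 1 to 25 in G266 but from 3 to 6 in ZFTMA, which per noise read is a log2 ratio of 3.58 in G266 and -0.38 in ZFTMA (2.08 ± 0.75, SE, edgeR adjusted p = 0.0133). None of them was called by DESeq2, where the adjusted p lay between 0.12 and 0.172, or by edgeR without DMSO-treated G266, where it lay between 0.163 and 0.62. The unplaced peak was also lost without AZA-treated G266 (edgeR adjusted p = 0.487) and the other two without AZA-treated ZFTMA (edgeR adjusted p = 0.135 and 0.424). All of them had a DMSO total of 4, the lowest that was common.

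Beside the lowest totals stood a handful of single-CpG peaks with many fragments, 21 with 50 or more over the DMSO libraries. The highest, on chromosome Z at 29325561 to 29325562, held 167 fragments with DMSO and 48 with AZA in G266, and 84, 44 and 81 with DMSO, with AZA and untreated in ZFTMA (log2 change -2.25 ± 0.57, SE, edgeR adjusted p = 2.52e-04). Its next peak was 1138 bp away. Also on chromosome Z, at 6924747 to 6924748, G266 went from 37 to 9 and ZFTMA from 41 to 12, with 47 untreated (-2.80 ± 0.50, SE, edgeR adjusted p = 2.47e-07). On chromosome 1A at 37924430 to 37924431 the AZA counts were above the DMSO counts, 36 against 26 in G266 and 32 against 24 in ZFTMA, with 27 untreated, and per noise read the log2 change of -0.44 ± 0.46 (SE) did not pass the test (edgeR adjusted p = 0.417). These were the peaks with the most fragments over all libraries on named chromosomes.

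Untreated ZFTMA gives a control level that the peak calling did not use. It held 251807 fragments on the single-CpG peaks, 0.833 times the DMSO level per noise read (0.829 to 0.838, counting error). The wider peaks held 1.14 times the DMSO level and those of 3 to 50 bp 1.04 times. Per non-duplicate read the ratio of the single-CpG peaks was 0.742 and per fragment on peaks 0.734, against 1.02 and 1.01 in the wider peaks. The ratio of the single-CpG peaks was 0.728 times that of the wider ones, a factor that cannot change with the scale because the library size cancels. Peak by peak the picture differed. Of the 4797 single-CpG peaks with at least 10 fragments over both libraries (2.42%), 47.6% had a log2 ratio per noise read below 0. Their median was 0.085, against 0.147 in the wider peaks, of which 39.1% were below 0. This minimum favours peaks that are high in either library. With untreated in place of DMSO as the control, the AZA level in ZFTMA was 0.423 times the control per noise read (0.420 to 0.425), against 0.108 in the wider peaks (per fragment on peaks the same ratios were 3.66 and 0.933). These comparisons have 1 library on each side and share the AZA library with the comparison above.

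The gap between single-CpG and wider peaks in untreated ZFTMA remained among peaks of equal DMSO total. At a total of 4 the untreated to DMSO ratio was 0.859 in single-CpG peaks and 1.13 in wider ones, at 10 to 14 it was 0.850 against 1.02, and at 20 to 49 it was 0.896 against 1.07. In each of the 8 ranges of DMSO total from 4 upwards it was below 1 in the single-CpG peaks. Peaks over 200 bp were also below 1 at totals of 4 (0.806, 73 peaks) and 5 (0.951, 289 peaks), but above 1 at all higher totals. For AZA the order of the classes changed with the total. At a total of 4, the AZA to DMSO ratio per noise read was 0.285 in single-CpG and 0.257 in wider peaks in G266, and 0.413 against 0.281 in ZFTMA. At 10 to 14 fragments it was 0.164 against 0.189 in G266 and 0.255 against 0.224 in ZFTMA, and at 15 to 19 fragments 0.141 against 0.172 in G266 and 0.178 against 0.183 in ZFTMA. From 50 fragments, which only 21 single-CpG peaks reached, it was 0.201 against 0.165 in G266 and 0.133 against 0.104 in ZFTMA. No ratio here has a replicate.

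**Figure D2:**
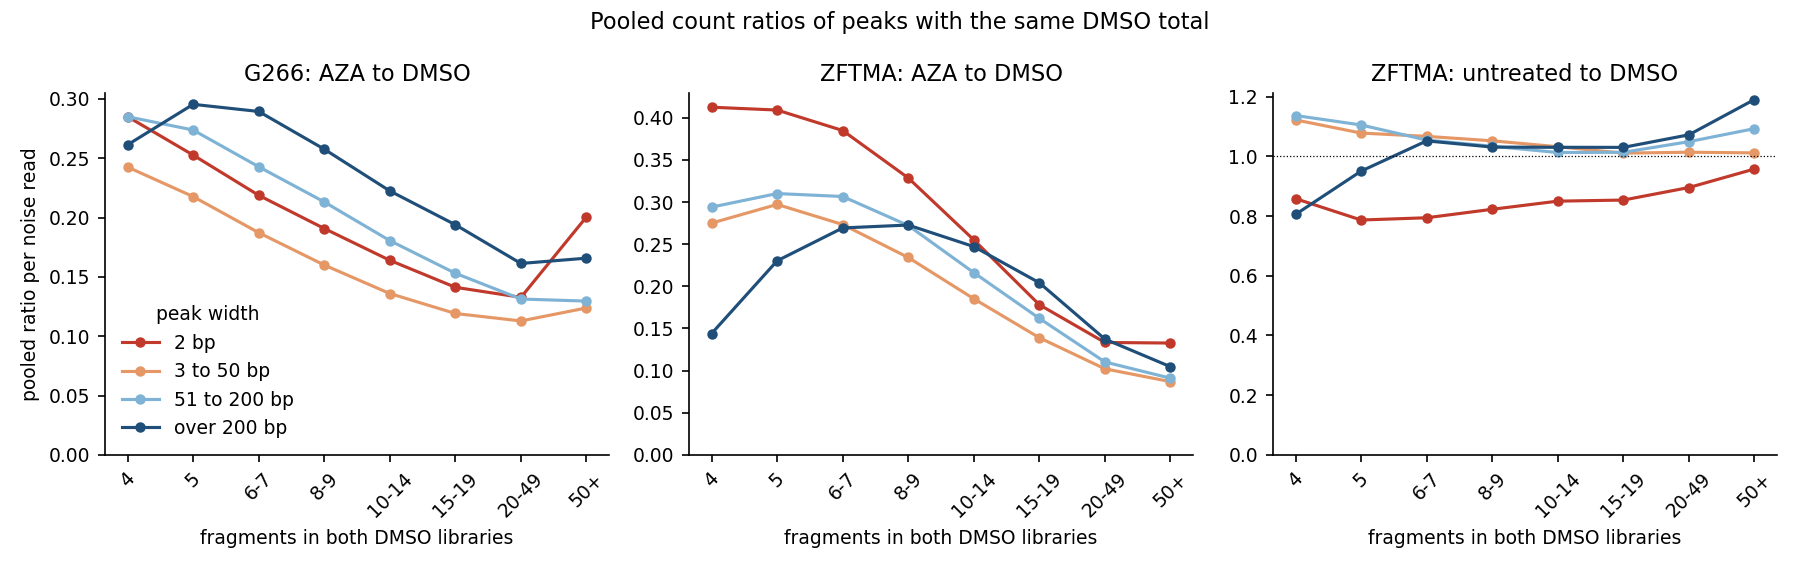
Pooled count ratios per noise read against the number of fragments in both DMSO libraries, by peak width: AZA to DMSO in G266, AZA to DMSO in ZFTMA, and untreated to DMSO in ZFTMA. From a DMSO total of 4 upwards, the range plotted, the single-CpG peaks of the last panel lie between 0.787 and 0.958, and the AZA ratios lie under 1 per noise read, where the pooled values of the class are 0.231 and 0.352, but the direction flips in ZFTMA per non-duplicate read (1.69) and in both lines per fragment on peaks (1.33 and 2.69).

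Between the lines, DMSO-treated G266 held 2.99 times the fragments of DMSO-treated ZFTMA on single-CpG peaks, against 1.15 times on the wider peaks. After AZA the ratio was 1.14 on single-CpG and 0.916 on wider peaks. Per noise read the DMSO ratio was 1.30 against 0.499, although the study assumed similar noise only between libraries of the same line. Per non-duplicate read it was 2.29 against 0.879, and per fragment on peaks 2.47 against 0.949. The G266 to ZFTMA ratio of single-CpG peaks was 2.60 times that of wider peaks with DMSO and 1.25 times with AZA, where the library size again cancels. At equal DMSO totals the classes lay nearer to each other. G266 supplied 74.2% of the DMSO fragments of single-CpG peaks with 4 fragments and 67.3% of those of wider peaks, and 74.99% against 69.6% at 10 to 14 fragments.

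The test of the lines called no single-CpG peak. With TMM and the treatment as a block, edgeR found 0 higher in G266 and 0 higher in ZFTMA at an FDR of 0.1, as it did for all peaks (0% called in either direction). At an unadjusted p under 0.05, 2313 of the 197885 tested were higher in G266 and 124 in ZFTMA, and with DESeq2 82 and 5. In either test these are a smaller part of the class than the 0.05 that evenly spread p-values would give. None of them passed the FDR. The median fitted log2 difference of G266 minus ZFTMA was 0.72 over the single-CpG peaks and 0.22 over all peaks. Without DMSO-treated ZFTMA these medians were 0.12 and 0.27, in the opposite order, and with noise reads as library size 0.27 and -0.25. When untreated ZFTMA was added as a further control library, 1291 were higher in G266 and 61 in ZFTMA, whereas of all peaks 9583 and 40870 were. With noise reads as library size 15 were higher in G266 and 49 in ZFTMA, and of all peaks 117 and 26467.

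The single-CpG peaks lay about as far from other peaks as the wider ones did. The median distance to the nearest peak was 445 bp (quartiles 259 and 750), against 459 bp (297 and 746) for wider peaks, and 84.6% had a neighbour within 1000 bp. They differed at short range, where 17.1% had a neighbour within 200 bp, against 11.3% of the wider peaks. The nearest peak was itself a single-CpG peak in 33.0%, against 27.2% for the wider peaks, beside a share of 27.5% of single-CpG peaks overall. Along the chromosomes they formed 136472 runs uninterrupted by a wider peak. Of the members 48.0% stood alone between wider peaks, 23.4% were in runs of at least 3, and the longest run had 12.

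The distance to the next peak went along with the values. The 9239 single-CpG peaks with a neighbour under 100 bp away had a mean DMSO total of 4.19 fragments, an untreated to DMSO ratio of 1.07 and 0.271% called lower after AZA. From 400 bp to under 1000 bp (79706 peaks) the mean was 6.31, the untreated to DMSO ratio was 0.815 and 12.7% were lower, and for the 1271 peaks with no neighbour within 5000 bp the ratio was 0.727. In that last group the mean was 5.25 and 8.50% were lower, so that these values, unlike the ratio, were highest at middle distance. The decline of the ratio was not particular to the class. In peaks of 3 to 50 bp it went from 1.27 under 100 bp to 0.921 from 5000 bp, and in all wider peaks from 1.24 to 1.11. A captured fragment is longer than these short distances and can be counted on both peaks, and how much of the relation comes from shared fragments was not tested.

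**Figure D3:**
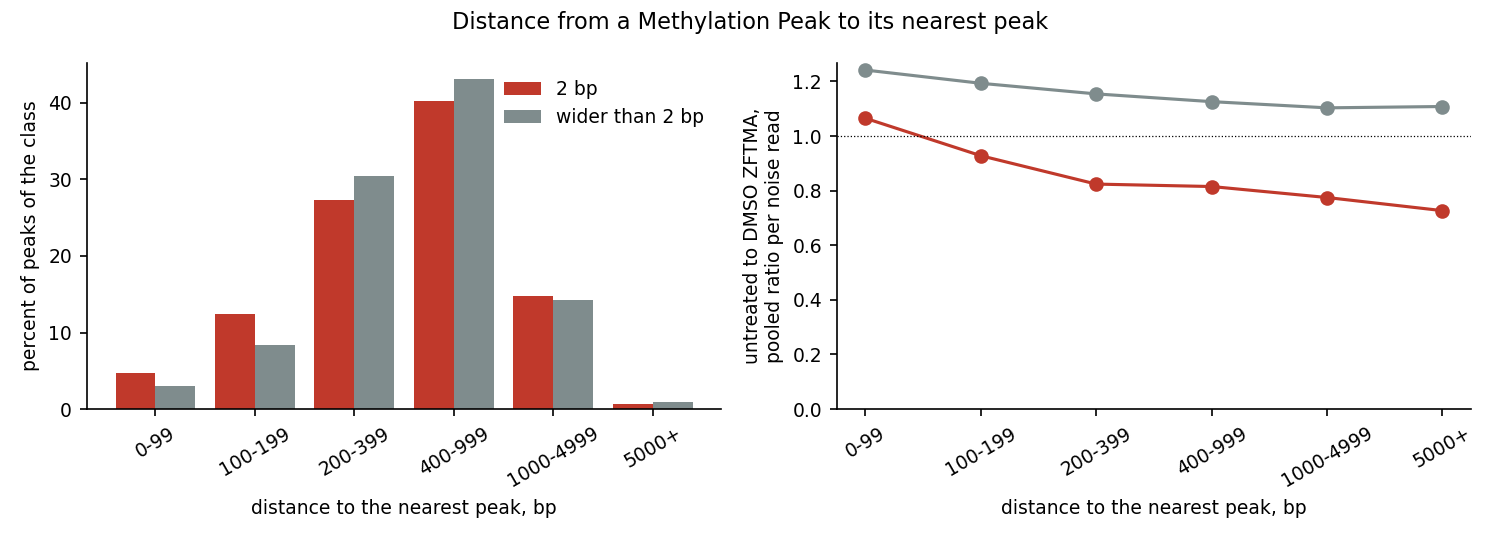
Left, percent of single-CpG and wider peaks by distance to the nearest peak in bp. Right, pooled untreated to DMSO ratio of ZFTMA per noise read in the same bins. The ratio of single-CpG peaks goes from 1.07 under 100 bp to 0.727 from 5000 bp, and that of all wider peaks lies between 1.10 and 1.24, although in those of 3 to 50 bp, not plotted alone, it also goes from 1.27 to 0.921.

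Large chromosomes held more single-CpG peaks. Bird genomes consist of a few large chromosomes and many small ones, which are gene-dense and rich in GC and CpG. On the 7 chromosomes whose peaks span at least 50 Mb, 29.96% of the peaks were 2 bp wide (28.1% to 31.7%), and these chromosomes held 71.1% of the class. On the 16 spanning under 20 Mb with at least 50 members it was 19.6% (10.1% to 24.4%), with no overlap between these ranges. Among the chromosomes with at least 50 single-CpG peaks, which leaves out 3 that held at most 2, the lowest share was on chromosome 25 (10.1% of 897 peaks), followed by chromosome 22 (12.8%) and 1B (13.4%), and the highest on chromosome 4 (31.7% of 46450 peaks). Over the 31 chromosomes with at least 50 members, the share went up with the logarithm of the span (Pearson's r = 0.954, Spearman's rho = 0.974), given as a description since chromosomes share libraries and differ in base composition. Per Mb there were 187 to 238 single-CpG peaks on the large chromosomes and 71.4 to 190 on the small ones. On unplaced sequence 15.2% of 18671 peaks were single-CpG. Widening the class to peaks of up to 50 bp gave 40.0% on large and 27.7% on small chromosomes.

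The levels also varied with the chromosome. The G266 to ZFTMA ratio of DMSO counts on single-CpG peaks ran from 1.64 on chromosome 25 to 3.57 on chromosome Z, with a median of 2.71 over the 31 chromosomes. Chromosome Z also had the highest ratio among wider peaks (1.43). In birds males carry a pair of Z chromosomes and females a Z and a W, and G266 is male and ZFTMA female, but the DNA dose of chromosome Z in the lines was not tested. After AZA the ratio on single-CpG peaks ran from 0.958 to 1.49, with chromosome Z at 1.17. Per noise read the untreated to DMSO ratio was below 1 on all 31 chromosomes (0.806 to 0.974), lowest on chromosome Z. The AZA to DMSO ratio per noise read ran from 0.142 to 0.250 in G266 and from 0.173 to 0.436 in ZFTMA, and was lower in G266 on 29 of the 31. From 3.30% to 12.0% of a chromosome's single-CpG peaks were called lower after AZA.

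**Figure D4:**
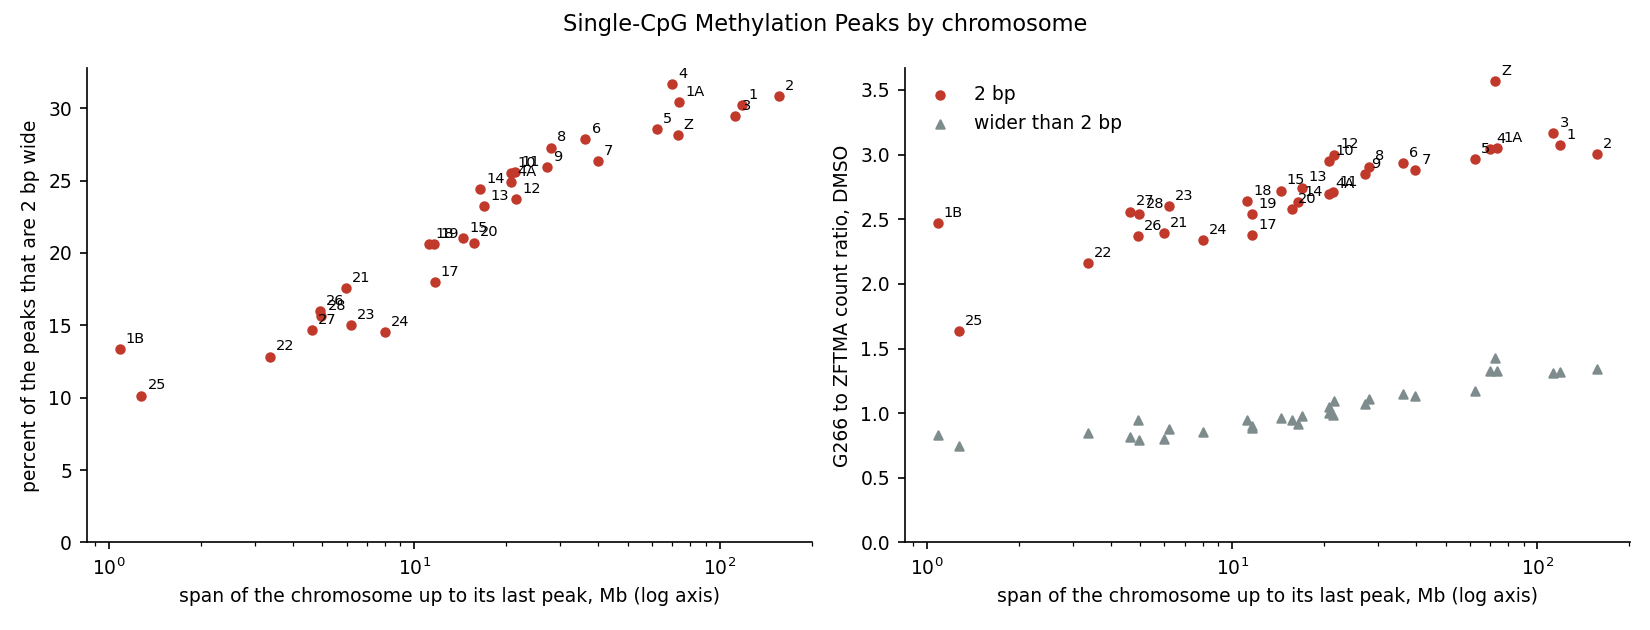
Left, percent of a chromosome's Methylation Peaks that are 2 bp wide, against the span of the chromosome up to its last peak in Mb on a log axis, from 10.1% on chromosome 25 to 31.7% on chromosome 4. Right, G266 to ZFTMA ratio of DMSO counts for single-CpG peaks (circles) and wider peaks (triangles), with chromosome Z highest in both (3.57 and 1.43).

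RRBS of untreated ZFTMA reached few of the class. The CpG of 2896 single-CpG peaks (1.46%) was covered by at least 10 reads, all of them at the exact position of the peak. The share covered was 21.7% of the peaks wider than 200 bp, which hold many CpGs. The covered members had a mean DMSO total of 5.12 fragments against 5.76 over the class, and a median coverage of 62 reads. As the authors set the peak threshold with these RRBS data, the degree within peaks is not independent of the peak calling.

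Most of the covered single CpGs were methylated. Their median methylation degree was 81.9% (quartiles 54.4% and 93.7%), with a mean of 71.1% ± 28.3 (SD over 2896 CpGs of 1 library). In peaks of 3 to 50 bp the median was 74.4%, from 51 to 200 bp 72.3% and above 200 bp 80%, while 459146 CpGs outside peaks had a median of 4.35%. A degree of at most 5% was found for 4.83% of the single CpGs, 12.8% of the CpGs in peaks of 3 to 50 bp and 50.99% of those outside peaks. Between 20% and 80% lay 39.6%, and above 80% lay 51.8%. With at least 100 reads the median of the 844 remaining members was 70.0%.

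**Figure D5:**
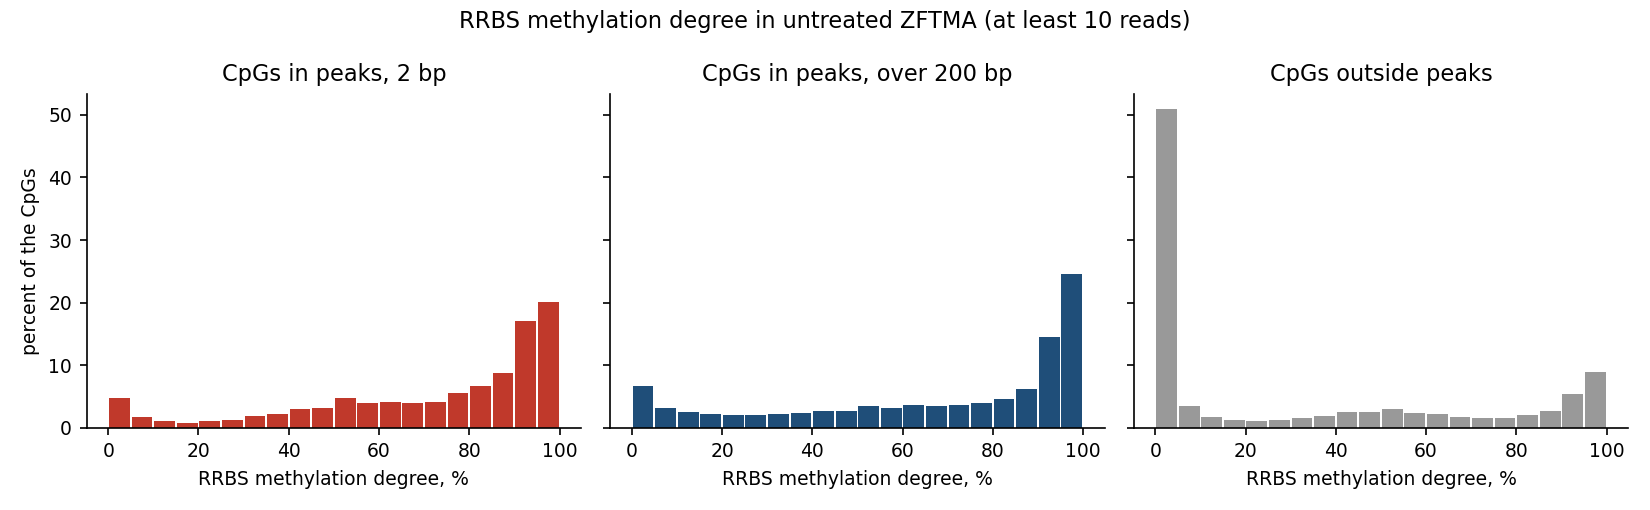
RRBS methylation degree of CpGs with at least 10 reads in untreated ZFTMA, as percent of the CpGs in bins of 5 percentage points, for single-CpG peaks, peaks wider than 200 bp and CpGs outside peaks. The highest bar of the single CpGs is the last (20.1%), and the first holds 4.80%, against 50.9% for the CpGs outside peaks.

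The degree and the number of captured fragments went together weakly in the same cells. Over the 2896 members the Spearman correlation of the RRBS degree with the untreated count was 0.058, given as a description. Members with a degree of at most 5% held a mean of 1.77 untreated fragments and those above 95% held 1.85, and 438 members with a degree above 80% held none. Read the other way, the median degree was 78.9% for 917 members without an untreated fragment, 89.7% for 205 with 5 to 9 and 92.2% for 24 with 10 or more. The DMSO count of G266 differed more, with a mean of 2.58 fragments at degrees of at most 5% and 3.93 above 95% (Spearman 0.176). Of the members with a degree of at most 5%, 0.714% were lower after AZA, and of those above 95%, 10.8%. The 187 covered members that were lower had a median degree of 92.8%, against 80% for the others. Their DMSO counts were also higher, and what part that had was not tested.

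Other CpGs near a member were rarely measured. For 1987 covered members (68.6%) RRBS covered no other CpG within 100 bp. For 775 it covered CpGs there that lie outside peaks, and the member was the more methylated in 407 (52.5%), with a median of 63.6% against 58.7% for its neighbours' mean and a mean difference of 3.05 ± 36.6 percentage points (SD over 775 members). Members above and below these neighbours outside peaks were thus nearly equal in number. Such neighbours had not passed the peak threshold, which the authors set with these RRBS data.

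Of the members with at least 100 RRBS reads, the one with the most untreated fragments, on chromosome 4 at 14565951 to 14565952, held 14 and was methylated in 97 of 110 reads (88.2%, Wilson interval 80.8 to 93.0), while G266 held 1 (DMSO) and 4 (AZA) and ZFTMA 3 (DMSO) and 4 (AZA). A peak of 1032 bp lay 22 bp away. On chromosome 19 at 2885401 to 2885402, 961 bp from any peak, 116 of 122 reads were methylated (95.1%, 89.7 to 97.7), the DMSO counts were 10 and 10, the AZA counts 3 and 3, and the untreated count 13, and it was lower after AZA (log2 change -2.58 ± 0.71, SE, edgeR adjusted p = 7.76e-04). The next, on chromosome 1 at 49490363 to 49490364, touched a peak of 1368 bp and was methylated in 171 of 193 reads (88.6%, 83.3 to 92.4), while G266 held 2 (DMSO) and 1 (AZA) and ZFTMA 2 (DMSO), 6 (AZA) and 11 (untreated). Only 2 single-CpG peaks touched another peak in this way.

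Fragments were also counted on CpGs that RRBS found nearly unmethylated. On chromosome 9 at 14441151 to 14441152, within XXYLT1, a gene for a xylosyltransferase, 9 of 229 reads were methylated (3.93%, 2.08 to 7.30), yet 8 untreated fragments were counted. On chromosome 4A at 5163632 to 5163633, 1 of 102 reads was methylated (0.980%, 0.173 to 5.35) beside 7 untreated fragments, and on chromosome Z at 54221834 to 54221835, 3 of 130 (2.31%, 0.788 to 6.57) beside 6. They lay 59, 34 and 31 bp from the nearest peak, of 1421, 762 and 39 bp. These distances are shorter than the average of about 200 bp that the shearing aimed at. The highly methylated members on chromosomes 4 and 1 named above lay closer still to a wider peak. Whether fragments were shared with the nearest peak was not tested.

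Gene spans were known for 3176 genes, which the study had listed on these libraries, so what follows is a description and not independent evidence. Within these spans and 2000 bp on either side lay 15915 single-CpG peaks, 23.3% of the peaks there, and 9.18% were lower after AZA. In a list of 44 ion channels and neurotransmitter receptors, the proteins that carry and receive signals between neurons, 378 lay at 37 genes (27.1% of the peaks) and 28 were lower (7.41%). At 22 adhesion and matrix genes, which hold cells to each other and to collagen, there were 288 (25.2%), of which 22 were lower (7.64%). At 25 developmental transcription factors there were 10 at 4 genes, 6.13% of the peaks, and 2 were lower. None was higher in any of these lists, and the background over all peaks was the 54.6% lower given above.

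Long genes carried the most. CACNA2D1, an auxiliary subunit of voltage-gated calcium channels that spans 195644 bp on chromosome 1A, held 42 single-CpG peaks whose summed fragments were 206 (DMSO) and 90 (AZA) in G266 and 55 (DMSO), 65 (AZA) and 54 (untreated) in ZFTMA. Of these 3 were lower. GRIN2A, a subunit of the NMDA receptor, held 31 and none was lower (G266 119 and 51 fragments, ZFTMA 32, 43 and 34). KCNT2, a sodium-activated potassium channel, held 30, of which 6 were lower (G266 152 and 36 fragments, ZFTMA 47, 45 and 39). CACNA1I, the pore of a T-type calcium channel, held 22 with 1 lower, and GABRB2, a GABA-A receptor subunit, held 21 with 3 lower, as many as the potassium channel gene KCNH8. Per noise read the AZA to DMSO ratio of these genes was 0.167 (KCNT2) to 0.308 (CACNA2D1) in G266 and 0.350 (GABRB2) to 0.554 (GRIN2A) in ZFTMA, and scaling by the fragments on peaks turns all of them above 1 except that of KCNT2 in G266. The share lower was 9.23% over all single-CpG peaks. Of the wider peaks at these genes, 52 of 68 (CACNA2D1), 31 of 65 (GRIN2A) and 22 of 38 (KCNT2) were lower. The same held for 55 of 86 (CACNA1I), 24 of 39 (GABRB2) and 15 of 29 (KCNH8).

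Among the adhesion and matrix genes, COL25A1, a membrane-bound collagen, held 54 single-CpG peaks over 291899 bp, of which 3 were lower (G266 212 and 60 fragments, ZFTMA 60, 69 and 36). ITGA9, an integrin subunit, held 44 with 4 lower, CDH12, a cadherin, 29 with 3 lower, COL27A1, a fibrillar collagen, 26 with 1 lower, and COL21A1, a collagen bound to fibrils, 16 with none lower. Of the wider peaks, 65 of 104 were lower at COL25A1, 95 of 121 at ITGA9 and 28 of 54 at CDH12. At COL27A1 69 of 81 were lower, and at COL21A1 18 of 33. Of the developmental transcription factors only TBX18, of the T-box family, held more than 2. Its 6 single-CpG peaks all lay within the gene and 2 of them were lower (G266 29 and 6 fragments, ZFTMA 10, 7 and 8), beside 16 of its 17 wider peaks. SOX17 had 2, and FOXC2 and HOXA2 had 1 each, all outside the gene body.

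Of the genes the study had followed up individually, together with HBEGF, which it only showed as tracks, 7 had a span. Of these 5 held 9 single-CpG peaks in all, none of which passed the test. Most of their wider peaks were lower: 6 of 6 at NGB, 4 of 4 at HES1, 12 of 15 at GABRD, 15 of 20 at ANK1 and 4 of 4 at HBEGF. The gene listed as HES1, a Notch target and transcriptional repressor, had 1 at 1684 bp from the gene, although it is uncertain that this record is the HES gene the study followed up, whose counts in the order DMSO, AZA, untreated were 7 and 0 in G266 and 0, 1 and 0 in ZFTMA (edgeR adjusted p = 0.215). GABRD, another GABA-A receptor subunit, had 1 near the gene (6 and 3 in G266, 2, 6 and 0 in ZFTMA) and 1 within it (4 and 0 in G266, 1, 0 and 1 in ZFTMA). NGB, the neuronal globin, had 2 within the gene, 21 bp apart, with 2 and 3 fragments in DMSO-treated G266 and 1 each after AZA. ANK1, an ankyrin that anchors membrane proteins to spectrin, had 3 with 2 to 4 fragments in DMSO-treated G266, and HBEGF, a growth factor of the EGF family, had 1 with 4. No AZA count at these 9 peaks exceeded 3 in G266, and in ZFTMA the 6 fragments near GABRD were the most. MMP9, a matrix protease, and IKBKE, a kinase of the NF-kappaB pathway, had none, while all of their 4 and 9 peaks were wider.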

How the data were processed

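The authors mapped read pairs to taeGut3.2.4 with Bowtie2 2.1.0, removed duplicates, drew the peaks on the summed coverage of both DMSO libraries and deposited fragment counts per Methylation Peak without normalization. For RRBS the authors mapped with Bismark 0.9.0 and deposited, for CpGs with at least 10 reads, the coverage as a read count and the methylation degree in percent. Degree times coverage was a whole number of reads, within 0.05 reads, for 100% of the CpGs. RNA-seq was not used here.

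The quasi-likelihood test of edgeR 4.0.16 (R 4.3.3) was run on the counts of all 719917 peaks, without a filter on low counts and with Benjamini-Hochberg adjustment. Library sizes for AZA against DMSO were noise reads, the study's non-duplicate reads minus the fragments on peaks, both taken to count read pairs. The cell line was the block, since each line received both treatments, as in the study (correlation of same-line deviations 0.123). The lines were compared with TMM and the treatment as block. SE is the log2 change over the root of its F statistic. DESeq2 1.42.0, whose dispersion trend was a local regression, was an alternative. The edgeR test was checked on simulated data in which few peaks changed. Detection was required there only for peaks with many fragments, so the check does not cover detection at single-CpG peaks. Ratios per peak used a prior of 0.5 counts and peaks with at least 10. Intervals cover counting error only, exact binomial for shares of peak counts and Wilson for RRBS degrees (Python 3.11.15, scipy 1.17.1).

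Named were the 3 peaks with the most fragments on named chromosomes. Of the peaks called after AZA, the 3 with the smallest p were named among those lower (in both lines) and among those higher. Of members with at least 100 RRBS reads, the 3 with the most untreated fragments were named. The same was done among those of them with a degree of at most 10%. Peaks within 2000 bp of the genes the study followed up, or of HBEGF, were also named. So were the 5 genes of each other list with the most members (ties by symbol). Peaks that differ between the lines were to be named too, but none passed. Gene spans came from the study's supplementary gene tables, where 3176 records had a position and BDNF was not found. The members, lists and alternatives were chosen with earlier results of these data known.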

Additional observations from a re-analysis of the deposited data

Results flagged for a closer look

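Some results pointed in opposite directions in G266 and ZFTMA. With 1 library per line and treatment the difference between the lines was not tested for any of them. Summed over single-CpG peaks, the AZA to DMSO ratio per non-duplicate read was 0.763 in G266 and 1.69 in ZFTMA, while per noise read both lines lay below 1. The other values are log2 ratios per noise read at single peaks. On the unplaced scaffold at 6215318 the log2 ratio was 3.58 in G266 (1 to 25 fragments) and -0.38 in ZFTMA (3 to 6 fragments). On chromosome 4 at 14565951 it was 1.08 in G266 (1 to 4 fragments) and -0.92 in ZFTMA (3 to 4 fragments). On chromosome 1 at 49490363 it was -1.24 in G266 (2 to 1 fragments) and 0.10 in ZFTMA (2 to 6 fragments). Near HES1, on chromosome 9 at 14673455, it was -4.41 in G266 (7 to 0 fragments) and 0.31 in ZFTMA (0 to 1 fragment), both with a prior count because of the 0. Near GABRD, on chromosome 21 at 3763877, it was -1.40 in G266 (6 to 3 fragments) and 0.10 in ZFTMA (2 to 6 fragments). At 4 of these 5 peaks no count exceeded 7 in the DMSO and AZA libraries, so a few fragments more or fewer would turn the sign.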

How the results depend on the processing

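The single-CpG peaks had a median DMSO total of 5 fragments, and what part this had in the number called was not tested. The scale sets the direction after AZA. After AZA 18266 single-CpG peaks were lower and 3 higher. TMM gave 1 and 37, with a median log2 change of 0.44 in place of -1.84. All non-duplicate reads gave 128 and 66. Without the cell line as replicate block 57328 were lower, beside 478247 of all peaks. DESeq2 gave an adjusted p to 43068 single-CpG peaks, of which 9349 were lower and 0 higher (0 higher also at an unadjusted p under 0.05). Over all peaks it called 331744 lower and 3 higher of 482706. Leaving out 1 library, also without the block, gave 10221 (without AZA-treated G266) to 29332 (without DMSO-treated ZFTMA) lower and 1 (without AZA-treated ZFTMA) to 13 (without DMSO-treated ZFTMA) higher, with 9 higher without DMSO-treated G266. Where that leaves 1 library in an arm, it was assumed to vary like the other arm. Over all peaks, the same fits gave the fewest and the most calls in each direction. Which fit gave the extremes was thus not particular to single-CpG peaks. Requiring 10 fragments over the libraries left 52929 single-CpG peaks, of which 18056 were lower and 3 higher. Of the 494249 peaks left in all, 395163 were lower and 18 higher. The median log2 change was then -1.51 over single-CpG peaks and -2.62 over all.

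Between the lines 0 differed. Noise reads gave 49 higher in ZFTMA and 15 in G266 (26467 and 117 of all peaks), and untreated ZFTMA as a further library gave 61 and 1291 (40870 and 9583). The remaining settings, leave-one-out included, gave 0 and 0. The pooled AZA to DMSO ratio was 0.763 in G266 and 1.69 in ZFTMA per non-duplicate read, and 1.33 and 2.69 per fragment on peaks. With untreated ZFTMA as control, chosen after seeing the data, the latter line had 0.423. Untreated to DMSO was 0.742 per non-duplicate read and 0.734 per fragment on peaks.

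The median log2 ratio was -2.46 in G266 with at least 20 fragments. In ZFTMA it was -3.15 with at least 20, and -1.28 with at least 5 or with no minimum. Over the lines it was -2.32, and -2.56 or -2.09 without replicate 1 or 2. The share difference of 4.17 percentage points was 5.63 and 2.71 without replicate 1 or 2. The mean RRBS degree was 69.9% with at least 30 reads, 65.5% with at least 100 and 69.1% weighted by reads. The share of peaks on chromosomes over 50 Mb was 31.4% for widths up to 10 bp and 40.0% up to 50 bp, and on those under 20 Mb 20.8% and 27.7%. The causes were not tested. The distance of 445 bp became 443 bp on named chromosomes only. Of the 6 named peaks called after AZA, none turned its direction under any setting, while DESeq2 called none of the higher ones and TMM 1 of the lower ones. The calls of the higher ones also depend on single libraries, as given with their values.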
